A study of Mus musculus with 24 samples.

Results

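The passage of wild-type mouse embryonic stem cells from the naive to the formative state was followed across all 16617 genes of a 3′ tag RNA sequencing series. Its members are the 3 formative and 3 naive wild-type samples, 6 of the 24 samples of the series, and the comparison is the mean log2 expression of each gene in formative cells minus that in naive cells. Formative wild-type cells were collected 63 h after LIF and 2i were withdrawn, and naive wild-type cells were kept in LIF and 2i, per the labels. Both are of the R1 line, so they stand for 1 line of embryonic stem cells. The same transition was sampled in 3 other lines, of which 2 are set against wild type at the end: MLL3CD_MLL4CD, called the catalytic-dead line here and also R1 per the labels, and MLL3KO_MLL4fl, called the floxed line, which lacks MLL3 by its name and has no parental line in the labels. The MLL3KO_MLL4KO line entered only the shared estimate of the spread. Each genotype is 1 line, and the labels give the same 63 h withdrawal to the formative samples of every line.

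Naive embryonic stem cells resemble the epiblast of the blastocyst before implantation. They are held there by LIF, which acts through STAT3, and by the inhibitor mix called 2i, which blocks the MEK kinase upstream of ERK and the kinase GSK3 that degrades β-catenin. When these are removed, FGF4 made by the cells activates ERK, the naive transcription factor network is dismantled, and cells enter a formative state akin to the epiblast just after implantation, marked by OTX2, POU3F1, FGF5 and the de novo DNA methyltransferases. MLL3 and MLL4, the products of Kmt2c and Kmt2d, are methyltransferases for histone H3 lysine 4 at enhancers, and the series was made to ask how their loss affects enhancers and gene activation, per its title.

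The deposited table gives 1 mean per group on a log2 scale of counts scaled to a common library total (CPM), and the whole counts of single libraries were solved from those means. The naive wild-type mean came from 2 libraries, with 14237630 and 8839216 counts, although the labels list 3 naive samples. The formative mean came from 3 libraries, with 13883231, 10191824 and 7527501 counts. Within a group the letters a, b and c run from the deepest to the shallowest library. Library values could be solved for 16450 genes in naive and 12058 genes in formative cells, and 11966 genes had both and could be tested. The 4651 genes without a test were mostly abundant ones: the 4267 genes at 40 CPM or more in formative cells were all among them, and the highest formative level of a tested gene was 38.9 CPM. A gene that became abundant in formative cells therefore has no test, while one that started abundant in naive cells and ended low does. For untested genes the difference of the deposited means is given, and the words rose and fell are kept for tested genes. Between libraries of 1 group, the SD of a gene had a median of 0.25 log2 in formative and 0.21 log2 in naive cells. The naive libraries differed from each other beyond counting at some genes. Of 11020 genes with at least 20 counts in both, 318 were at least 2-fold higher in naive library a and 204 in naive library b, for example Ddx10 at 372 CPM in a and 97.5 CPM in b. Group levels below are back-transformed means, in which a gene with no counts reads about 0.2 CPM because of the prior count added before the log.

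The labels of the states were checked on marker genes. Of 6 naive markers, 3 had library values in both groups, and their sum was 57.6, 86.4 and 58.5 CPM in formative libraries a, b and c, against 582 and 357 CPM in naive libraries a and b. Each naive library was above every formative one. Over all 6 the group levels summed to 288 CPM in formative and 1711 CPM in naive cells. The 5 formative markers summed to 2299 CPM in formative and 156 CPM in naive cells. Markers of fibroblasts, which are used as feeder cells, were not level between the states and went in both directions. Of the chosen markers, the 4 with library values (Col1a1, Col1a2, Thy1 and Dcn) were low. Their sums were 6.91, 9.42 and 12.1 CPM in formative and 2.53 and 1.58 CPM in naive libraries. Every formative library was above both naive ones in this sum. Vimentin, a fibroblast marker that stem cells also express, went the other way at 44.6 CPM in formative and 118 CPM in naive cells. In the longer fibroblast list, Pdgfrb fell from 2.61 CPM in naive to 0.444 CPM in formative cells. Fbln1 of that list did not pass, at 26.3 CPM in formative and 23 CPM in naive cells. Col3a1, Postn and Lum were not analysed here. The part of such cells in the results below was not tested, and in bulk RNA fewer cells of a type cannot be told apart from less RNA per cell.

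Across the tested genes, 2377 rose (19.9%) and 1483 fell (12.4%) in formative relative to naive cells, with limma at a Benjamini-Hochberg adjusted p under 0.05. Rises made up 61.6% of the changed genes and were also larger, with a median of 1.83 log2, against −1.46 log2 for falls. When median-of-ratios size factors replaced library totals, all differences shifted by −0.15 log2 and the counts became 1978 rises and 1848 falls, so the surplus of rises depends on the scaling. Of the 2377 rises, 65.6% were also called without naive library a and 70.1% without naive library b. Of the genes without a test, 417 (8.97%) had a formative mean 2-fold or more above the naive one, and 191 (4.11%) a mean 2-fold or more below it. Over all genes these shares were 17.9% and 9.65%. With the spread taken from recovered libraries, an alternative added after the data had been seen, 17.9% of such genes passed as higher and 8.53% as lower. Differences of 8-fold or more were seen upward in 395 genes and downward in 123, and differences of 32-fold or more in 30 and 4. The median difference was 0.14 log2 over all genes. Of the genes that rose, 134 had no count in either naive library, and of those that fell, 7 had no count in any formative library.

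**Figure D1:**
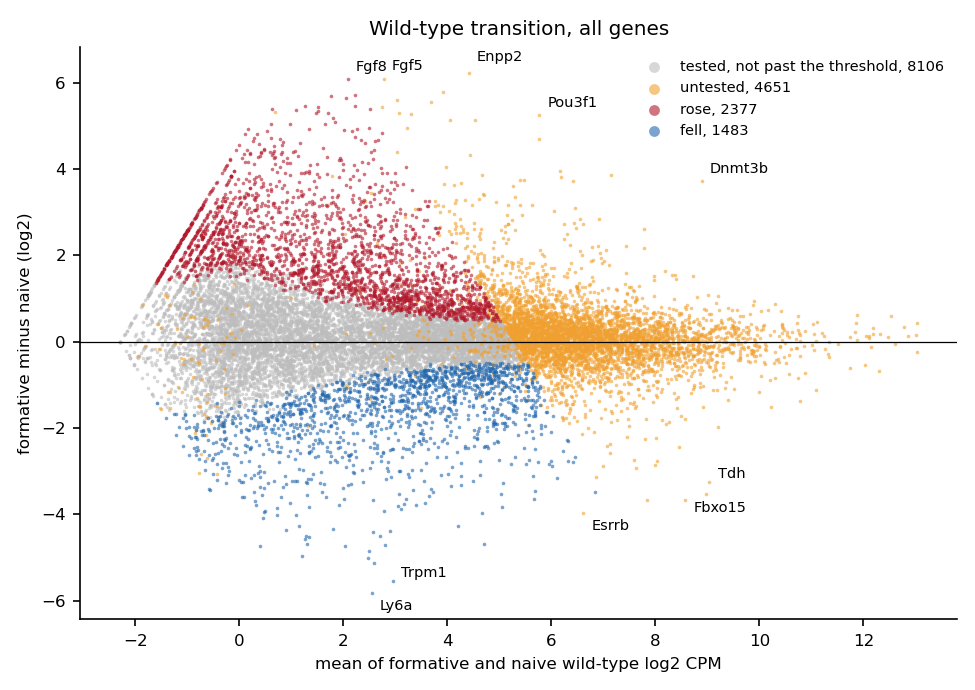
Formative minus naive difference in wild-type cells (log2, vertical axis) against the mean level of each gene (log2 CPM, horizontal axis), with tested genes that rose or fell in colour and untested genes apart. Changes reach about 6 log2 in both directions, with 395 genes 8-fold or more higher and 123 lower by as much, and the untested genes lie at the abundant end.

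The largest tested rise belonged to Fgf8, a secreted fibroblast growth factor of the early embryo. Fgf8 (chr19:45736798-45742915 of GRCm38) stood at 32.7, 38.6 and 32.9 CPM in the formative libraries, against 0.281 and 0.339 CPM in the naive libraries. Every formative library was far above both naive ones, a difference of 6.08 log2 with an SE of 0.51 and an adjusted p of 4.84e-10 from limma. Kif1a, a motor protein that carries synaptic vesicle precursors along microtubules, stood at 39.0, 29.0 and 33.6 CPM in formative and 0.562 and 0.339 CPM in naive libraries (5.71 log2, SE 0.56). Slc40a1, the iron exporter ferroportin, stood at 32, 25.3 and 29.9 CPM in formative and 0.421 and 0.339 CPM in naive libraries (5.64 log2, SE 0.54). Transcripts of all 3 genes were thus nearly absent from naive cells and similar among the formative libraries. Rem2, a small GTPase that restrains calcium channels, rose by 5.45 log2 (SE 0.44). Others among the 12 largest rises were Tmem54 (5.68 log2), the membrane trafficking protein Mal2 (5.39 log2), the neuronal glycoprotein Gpm6a (5.37 log2), the non-coding host gene Mir670hg (5.35 log2), Zfp608 (5.30 log2), the protocadherin Pcdh1 (5.29 log2) and Trim67 (5.17 log2). In all 12 the formative and naive libraries did not overlap, which the rule that chose them required and which held for 51.4% of all tested genes.

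The largest tested fall was at Ly6a, which encodes the surface protein Sca-1. Ly6a (chr15:74994877-74998031) stood at 0.576, 0.785 and 0.399 CPM in the formative libraries, against 41.8 and 45.7 CPM in the naive libraries. Naive cells thus held nearly all of its transcripts, with a difference of −5.82 log2 (SE 0.39, adjusted p 1.41e-11, limma). Trpm1, a cation channel best known from the retina, stood at 1.22, 1.18 and 0.531 CPM in formative and 49.7 and 56.0 CPM in naive libraries (−5.55 log2, SE 0.35). Smyd1, a lysine methyltransferase of striated muscle, stood at 0.864, 1.67 and 0.266 CPM in formative and 27.8 and 35.0 CPM in naive libraries (−5.0 log2, SE 0.43). For all 3 the naive libraries lay close together and far above the formative ones. The list of the 12 largest falls went on with Oas1f (−4.96 log2), Dmgdh, a mitochondrial enzyme of choline breakdown (−4.73 log2), Apol6 (−4.70 log2), Oas1a (−4.68 log2), the peptidoglycan recognition protein gene Pglyrp1 (−4.53 log2) and the serine protease inhibitor gene Serpinb1a (−4.51 log2). Dcstamp, which is needed for the fusion of osteoclasts, fell by 4.49 log2, St8sia1, a sialyltransferase of gangliosides, by 4.40 log2, and the kinase gene Dclk3 by 4.33 log2. Oas1a, Oas1f and Oas1g lie close together on chromosome 5 and are similar in sequence, so counts may be split among them.

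**Figure D2:**
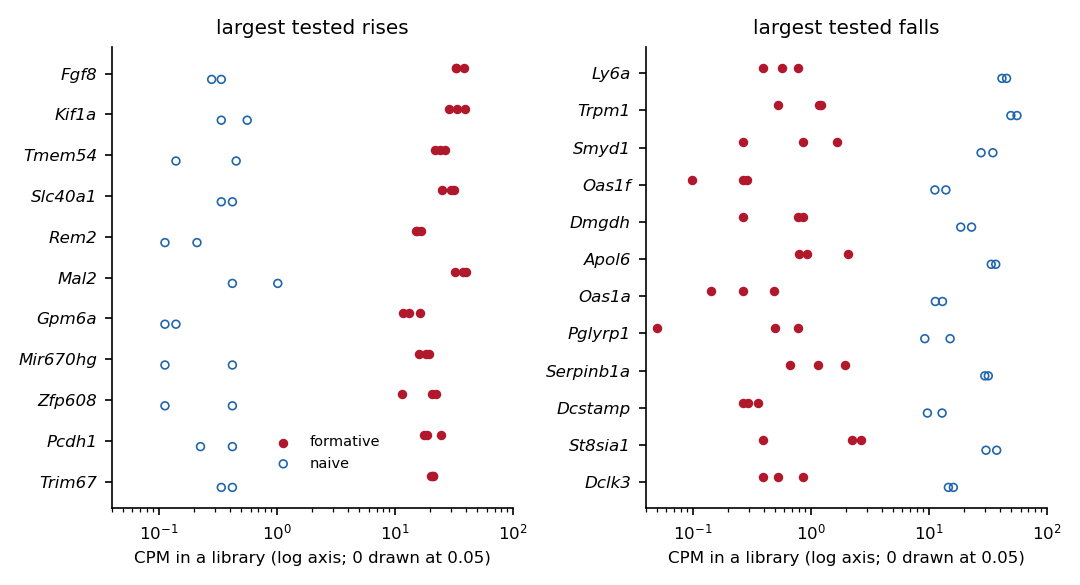
Level in each recovered library (CPM, log axis) of 11 of the 12 genes with the largest rise and the 12 with the largest fall among tested genes, filled points for formative and open points for naive libraries, with 0 drawn at 0.05 CPM. Fgf8 sits between 32.7 and 38.6 CPM in formative libraries with naive libraries at 0.281 and 0.339 CPM, and Ly6a sits under 1 CPM in formative libraries with naive libraries at 41.8 and 45.7 CPM.

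Several of the best known formative genes were too abundant in formative cells to be tested. Enpp2, which encodes autotaxin, the enzyme that makes lysophosphatidic acid, had the largest untested difference at 184 CPM in formative and 2.46 CPM in naive cells, 6.22 log2. Fgf5, the classical marker of the epiblast after implantation, stood at 56.5 CPM in formative and 0.83 CPM in naive cells, 6.09 log2. Pou3f1, a POU-domain transcription factor also called Oct6, stood at 335 CPM in formative and 8.83 CPM in naive cells, 5.24 log2. For these genes the naive libraries agree on a low level, with Fgf5 at 0.843 and 0.453 CPM and Pou3f1 at 7.73 and 9.62 CPM in libraries a and b. Vrtn, tied to the number of vertebrae in pigs (112 CPM in formative, 2.04 CPM in naive cells), the epithelial splicing regulator Esrp1 (57.0 CPM in formative, 1.17 CPM in naive cells), the carbonic anhydrase gene Car4 (87.4 CPM in formative, 1.88 CPM in naive cells), Fgf15 (61.3 CPM in formative, 1.59 CPM in naive cells), the kindlin gene Fermt1 (52.6 CPM in formative, 1.33 CPM in naive cells) and the tight junction gene Cldn6 (138 CPM in formative, 3.91 CPM in naive cells) were likewise higher. So were the synaptic gene Rims4 (43.8 CPM in formative, 1.01 CPM in naive cells) and, at lower levels, the ligand gene Wnt8a (10.2 CPM in formative, 0.255 CPM in naive cells). The spread was also taken from the libraries recovered in any group, naive wild type included. With it, the genes named here had adjusted p-values between 1.16e-13 and 8.03e-08 from limma.

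At the other end, the orphan nuclear receptor gene Esrrb, a core naive factor, stood at 23.5, 30.8 and 20.2 CPM in the formative libraries, and its group level was 24.7 CPM in formative against 388 CPM in naive cells, −3.98 log2. Tdh, the threonine dehydrogenase on which mouse naive stem cells depend, stood at 170 CPM in formative and 1626 CPM in naive cells, −3.26 log2. Fbxo15, a long-used reporter gene for pluripotency that is not itself required, stood at 107 CPM in formative and 1360 CPM in naive cells, −3.67 log2. These levels thus differed widely between the states, while each gene was still readily counted in formative cells. Klf2 stood at 71.7 CPM in formative and 545 CPM in naive cells, and Tfcp2l1 at 95 CPM in formative and 692 CPM in naive cells, both transcription factors of the naive network. The myosin light chain gene Mylpf (64.3 CPM in formative, 816 CPM in naive cells), the small heat shock gene Hspb8 (46.9 CPM in formative, 346 CPM in naive cells), Trap1a (39.5 CPM in formative, 344 CPM in naive cells), Stmn2 (101 CPM in formative, 687 CPM in naive cells) and the autophagy kinase gene Ulk1 (74.2 CPM in formative, 500 CPM in naive cells) were also lower. Rpl10l, at 148 CPM in formative and 1703 CPM in naive cells, is a retrogene copy of a ribosomal protein gene, and reads of the parent gene may be counted there. Cstdc1 entered the same ranking from the low end, with no count in any formative library and 1.47 CPM in each naive library.

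**Figure D3:**
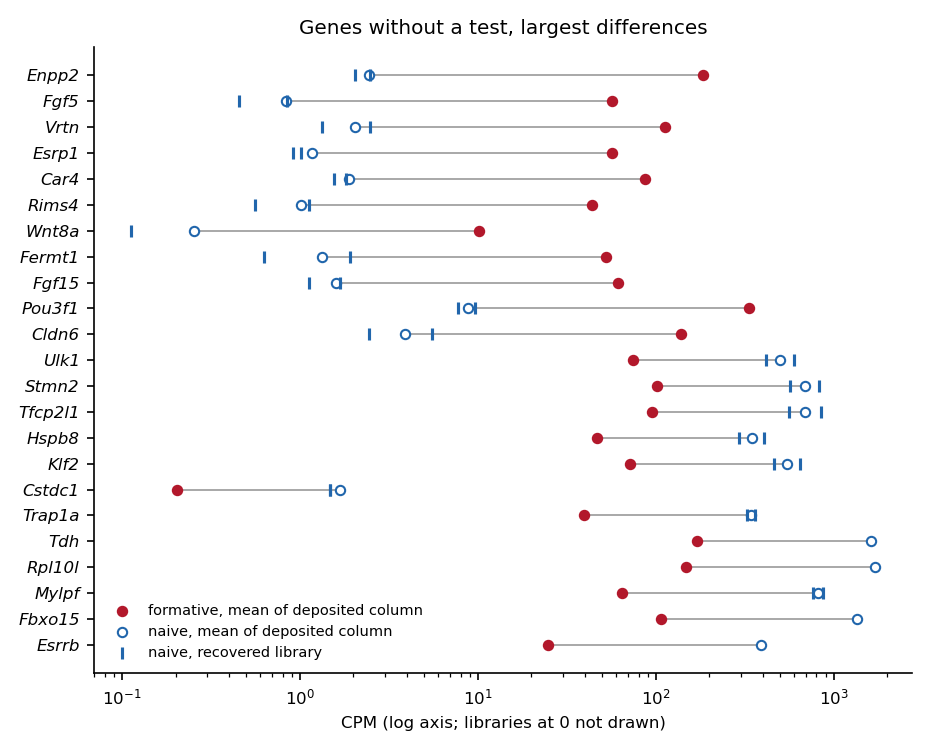
Group levels (CPM, log axis) in formative and naive wild-type cells of 11 of the 12 untested genes with the largest positive and the 12 with the largest negative difference of the deposited means, filled points for formative and open points for naive means, with ticks for naive libraries where recovered and not at 0. Pou3f1 stands at 335 CPM in formative and 8.83 CPM in naive cells, and Esrrb at 24.7 CPM in formative and 388 CPM in naive cells.

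Genes were then grouped by role in 40 lists. Over all lists, the members read against a background of 19.9% risen and 12.4% fallen tested genes and a median difference of 0.14 log2. Without naive library a the number of list members that rose became 77, against 118 with all libraries, and 65 fell, against 77 with all libraries, so counts of rises within a list rest partly on that library.

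All 15 naive transcription factors were lower in formative cells, with a median of −2.67 log2. Each of the 7 that could be tested fell, and 6 of the 8 untested ones were at least 2-fold lower. Tbx3, a T-box factor downstream of LIF, stood at 30.7, 41.7 and 32 CPM in formative and 243 and 202 CPM in naive libraries, −2.68 log2 (SE 0.22, adjusted p 6.44e-09, limma). Nr5a2, an orphan nuclear receptor, stood at 18.9, 27.8 and 15.5 CPM in formative and 167 and 119 CPM in naive libraries, −2.80 log2 (SE 0.25). The groups did not overlap for either gene. Prdm14, which represses de novo methylation and FGF signalling in naive cells, fell by 2.67 log2, Nr0b1 (Dax1) by 3.24 log2, and Zfp42, the gene of the marker Rex1, by 2.78 log2. Nanog stood at 121 CPM in formative and 420 CPM in naive cells, −1.80 log2, and the 2 with the smallest differences were Klf4 (101 CPM in formative, 185 CPM in naive cells) and Etv5 (124 CPM in formative, 158 CPM in naive cells). Among 15 other naive genes, 9 of 10 tested fell, among them the AKT coactivator gene Tcl1 (−3.64 log2, SE 0.26), the small GTPase gene Mras (−3.46 log2, SE 0.22), Morc1 (−3.83 log2, SE 0.26), the secreted phosphoprotein gene Spp1 (−3.15 log2, SE 0.24) and the receptor kinase gene Kit (−2.06 log2, SE 0.28). The exception, Dppa3 (Stella), was already low at 3.06 CPM in formative and 3.47 CPM in naive cells (adjusted p 0.747).

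Genes of pluripotency that both states share did not move with the naive factors. Of 16 such genes none of the 15 untested ones was 2-fold lower and 4 were at least 2-fold higher, with a median of 0.40 log2. Sall4 stood at 191 CPM in formative and 193 CPM in naive cells, and L1td1 at 788 CPM in formative and 852 CPM in naive cells. Sox2 stood at 129 CPM in formative and 245 CPM in naive cells, −0.92 log2. Lin28a and Lin28b, RNA-binding proteins that block the maturation of let-7 microRNAs, were higher at 371 and 86.6 CPM in formative, against 80.2 and 13.6 CPM in naive cells. Pou5f1, the gene of OCT4, was listed at only 8.36, 5.30 and 7.57 CPM in formative and 9.06 and 9.62 CPM in naive libraries (adjusted p 0.272). OCT4 has near-identical pseudogenes, so its listed level is uncertain.

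Formative transcription factors moved the other way. Of 19 measured, all 5 that were tested rose, and 10 of 14 untested ones were at least 2-fold higher, with a median of 2.56 log2. Without naive library a, 3 of the 5 passed the test. Grhl2, a grainyhead factor that opens epithelial enhancers in formative cells, stood at 26.7, 21.6 and 31.9 CPM in formative and 1.12 and 1.81 CPM in naive libraries, 4.02 log2 (SE 0.47, adjusted p 1.95e-07, limma). Lef1, a transcription factor of the Wnt pathway, stood at 24.3, 17.1 and 25.0 CPM in formative and 3.44 and 3.62 CPM in naive libraries, 2.56 log2 (SE 0.33), and Sox4 rose by 3.08 log2 (SE 0.33). The naive libraries lay close together for each of these. Otx2, the homeobox factor that drives the exit from the naive state, stood at 163 CPM in formative and 12.2 CPM in naive cells, 3.75 log2. Sox11 (281 CPM in formative, 18.3 CPM in naive cells), Sox3 (77.1 CPM in formative, 7.78 CPM in naive cells), Sall2 (85.1 CPM in formative, 7.89 CPM in naive cells) and Id1 (251 CPM in formative, 34.8 CPM in naive cells) were also higher. Tcf15 alone of the list was lower, at 41.0 CPM in formative and 56.4 CPM in naive cells, −0.46 log2.

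Both de novo DNA methyltransferase genes were higher in formative cells, although too abundant for a test. Dnmt3b stood at 1722 CPM in formative and 131 CPM in naive cells, 3.72 log2, and Dnmt3a at 221 CPM in formative and 35.6 CPM in naive cells, 2.64 log2. The naive libraries had 127 and 134 CPM of Dnmt3b and 36.9 and 33.9 CPM of Dnmt3a. Their cofactor gene Dnmt3l (362 CPM in formative, 525 CPM in naive cells) and the maintenance enzyme gene Dnmt1 (146 CPM in formative, 179 CPM in naive cells) did not share this direction. Of the demethylation enzymes, Tet2 stood at 29.0, 34.7 and 25.8 CPM in formative and 117 and 113 CPM in naive libraries and fell by 1.95 log2 (SE 0.22), and Tet1 stood at 123 CPM in formative and 178 CPM in naive cells. Over the whole list of 18 genes, 1 of 10 tested rose, a call lost when either naive library, or formative library a or c, was left out, and 4 fell.

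**Figure D4:**
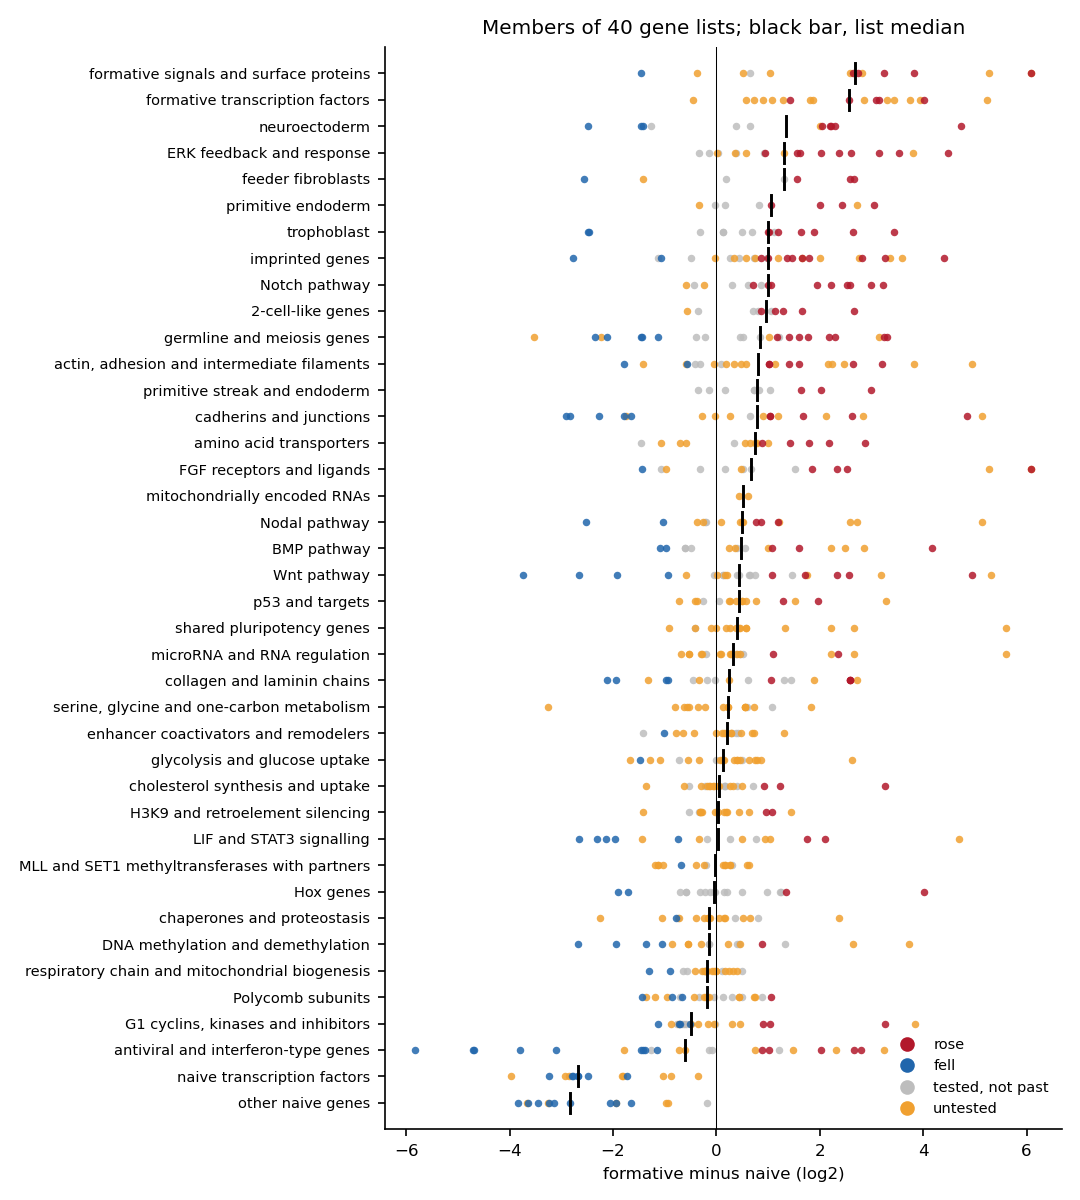
Formative minus naive difference (log2) of each member of the gene lists in wild-type cells, with tested members that rose or fell, tested members that did not pass and untested members marked apart and the list median drawn. The naive lists lie below 0 with medians of −2.67 and −2.84 log2, and the formative lists above it with medians of 2.56 and 2.69 log2.

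Genes of the FGF family and the feedback genes that ERK induces rose more often than they fell. In the list of 15 FGF ligands and receptors 4 of 11 tested rose and 1 fell. The fall, of Fgf10, was lost without naive library a or formative library a or c, and the rise of the receptor gene Fgfr3 (2.33 log2, SE 0.64) without naive library a. Besides Fgf8, Fgf13 rose by 2.52 log2 (SE 0.56), and the binding protein gene Fgfbp1 rose, at 17.1, 17.2 and 14.7 CPM in formative and 2.95 and 6.45 CPM in naive libraries (1.85 log2, SE 0.30). Fgf4, the ligand that naive cells themselves secrete, was lower at 121 CPM in formative and 239 CPM in naive cells, −0.98 log2. Of 14 tested ERK feedback and response genes, 9 rose and none fell, with a list median of 1.31 log2. Without naive library a, 4 of them passed. Egr1, an immediate early transcription factor, stood at 15.8, 16.3 and 11.3 CPM in formative and 0.773 and 0.226 CPM in naive libraries, 4.48 log2 (SE 0.51, adjusted p 6.60e-08, limma). The ERK phosphatase genes Dusp4 (3.53 log2, SE 0.53) and Dusp5 (2.61 log2, SE 0.29) rose, and Dusp6 stood at 274 CPM in formative and 19.5 CPM in naive cells. The libraries of the 2 states did not overlap for these phosphatases where library values were known. Not all early response genes followed, since Fos, Junb, Ier3 and Phlda1 did not pass the test and Ier2 stood at 58.0 CPM in formative and 57.8 CPM in naive cells.

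The receptor and several targets of LIF signalling fell, while the list as a whole was mixed: 5 of 10 tested members fell and 2 rose, with a median of 0.04 log2, and 1 rose with either naive library left out. Stat3, the transcription factor LIF acts through, stood at 34.2, 45.5 and 29.2 CPM in formative and 185 and 170 CPM in naive libraries, −2.31 log2 (SE 0.23, adjusted p 5.57e-07, limma). Its feedback inhibitor Socs3 stood at 6.63, 8.93 and 3.72 CPM in formative and 36.9 and 42.0 CPM in naive libraries, −2.66 log2 (SE 0.27). The receptor gene Lifr fell by 2.13 log2 (SE 0.23), the shared receptor chain gene Il6st by 0.74 log2 (SE 0.20) and Bcl3 by 1.96 log2 (SE 0.24). Lifr, Stat3 and Socs3 thus all fell, but other members of the list did not. Without a test, Socs2 was higher at 119 CPM in formative and 62.4 CPM in naive cells. Jak1, also untested, stood at 98.2 CPM in formative and 69.4 CPM in naive cells. Jak2 (−0.18 log2) and Cish (0.76 log2) did not pass. The kinase gene Pim2 was higher at 277 CPM in formative and 10.7 CPM in naive cells (4.69 log2), and Gadd45g rose by 2.10 log2 (SE 0.29).

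The other developmental pathways showed changes in both directions. In the Wnt list of 25, 5 of 18 tested genes rose and 4 fell, with a median of 0.44 log2, and without naive library a 3 rose. The ligand gene Wnt3 stood at 40.5, 20.5 and 35.3 CPM in formative and 0.632 and 1.02 CPM in naive libraries, 4.94 log2 (SE 0.52). Notum, a secreted enzyme that inactivates Wnt ligands and a β-catenin target, stood at 0.144, 1.08 and 0.133 CPM in formative and 6.88 and 7.01 CPM in naive libraries, −3.75 log2 (SE 0.59). The target genes Cdx1 (−2.66 log2, SE 0.36) and Sp5 (−0.94 log2, SE 0.23) fell as well, whereas Axin2 (0.40 log2), Nkd1 (1.46 log2), Znrf3 (0.75 log2) and Rnf43 (0.64 log2), targets that restrain the pathway, did not pass. The factor genes Lef1 and Tcf7 (1.07 log2, SE 0.30) rose. The receptor gene Fzd5 fell by 1.92 log2 (SE 0.20), while the receptor gene Fzd2 stood at 108 CPM in formative and 11.9 CPM in naive cells. In the Nodal list 3 of 7 tested rose and 2 fell, and without naive library a 1 rose. Its antagonist gene Lefty1 was higher at 79.9 CPM in formative and 13.3 CPM in naive cells, while Lefty2 stood at 68.8 CPM in formative and 89.6 CPM in naive cells. Skil, a feedback repressor of SMAD signalling, stood at 194 CPM in formative and 29.6 CPM in naive cells, and the activin subunit gene Inhbb fell by 2.52 log2 (SE 0.46). In the BMP list 3 of 10 tested rose and 2 fell, and both falls, of Bmp4 and Bmp7, were lost without naive library a or formative library a or c. Of the targets, the inhibitor of differentiation genes Id1, Id2 and Id3 stood at 251, 186 and 256 CPM in formative, against 34.8, 33.0 and 54.9 CPM in naive cells, and the homeobox gene Msx1 stood at 20.7, 19.7 and 24.3 CPM in formative and 1.26 and 0.792 CPM in naive libraries, 4.17 log2 (SE 0.49).

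In the Notch pathway 9 of 13 tested members rose and none fell, with a list median of 0.99 log2. The receptor gene Notch3 stood at 33.5, 36.4 and 30.3 CPM in formative and 7.73 and 9.39 CPM in naive libraries, 1.94 log2 (SE 0.21, adjusted p 6.15e-08, limma), and Notch2 rose by 1.06 log2 (SE 0.26). Among ligands, Jag2 stood at 12.2, 13.6 and 12.4 CPM in formative and 2.11 and 1.81 CPM in naive libraries, 2.58 log2 (SE 0.38), and Dll1 (2.53 log2, SE 0.56), Dll3 (0.99 log2, SE 0.29) and Jag1 (0.70 log2, SE 0.22) rose. Lfng, a glycosyltransferase that tunes the receptor, rose by 3.23 log2 (SE 0.55). The libraries of the 2 states stood apart for Notch3 and Jag2. The effector gene Hes5 rose by 2.22 log2 (SE 0.63) to 1.98 CPM in formative cells, against 0.425 CPM in naive cells, a call that was lost without naive library a (adjusted p 0.195), and Hey1 did not pass (0.61 log2). Hes1 (64.9 CPM in formative, 76.6 CPM in naive cells) and Rbpj (87.0 CPM in formative, 130 CPM in naive cells) had no test and were within 2-fold.

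Cell surface and matrix genes changed in both directions. Of 11 tested cadherin and junction genes, 5 rose and 5 fell. Without naive library b, 3 rose. Cldn7, a claudin of epithelia, stood at 44.5, 28.2 and 35.9 CPM in formative and 1.19 and 0.905 CPM in naive libraries, 4.84 log2 (SE 0.48, adjusted p 1.31e-08, limma). P-cadherin (Cdh3) rose by 2.62 log2 (SE 0.38), and the adhesion molecule gene Epcam stood at 324 CPM in formative and 45.5 CPM in naive cells. The connexin gene Gjb5 stood at 6.27, 7.85 and 4.52 CPM in formative and 40.3 and 53.9 CPM in naive libraries, −2.90 log2 (SE 0.29), and the junction molecule genes Jam2 and Pecam1 fell by 2.84 and 1.66 log2. Of the actin and filament genes, 6 of 11 tested rose and 2 fell, 0 or 1 fell when any 1 library was left out, and 6 of 13 untested were at least 2-fold higher. They included the smooth-muscle type genes Cnn1 (51.5 CPM in formative, 1.68 CPM in naive cells) and Tagln (12.9 CPM in formative, 0.909 CPM in naive cells) and the keratin gene Krt18 (2.64 log2, SE 0.25). Among the laminin chains Lamb1 was higher at 91.6 CPM in formative and 13.9 CPM in naive cells, while Lamc1 (−0.93 log2, SE 0.19) and Lama1 (−2.11 log2, SE 0.38) fell. Fibronectin (Fn1) stood at 105 CPM in formative and 262 CPM in naive cells. Beside these matrix genes, the summed fibroblast markers given above were higher in every formative library, while vimentin and Pdgfrb were lower in formative cells. The part of fibroblasts in the result was not tested.

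In 4 lists of later lineages more tested genes rose than fell, as over all tested genes, of which 19.9% rose and 12.4% fell. Of 10 primitive streak and endoderm genes, 3 rose and none fell. Brachyury (T) stood at 7.27, 6.18 and 8.90 CPM in formative and 1.47 and 0.339 CPM in naive libraries, 2.99 log2 (SE 0.51), Eomes at 25.2, 15.2 and 23.9 CPM in formative and 6.81 and 6.45 CPM in naive libraries, 1.63 log2 (SE 0.31), and Evx1 rose by 2.03 log2 (SE 0.47). All formative libraries were above the naive ones for these mesoderm factors. Of 11 tested neuroectoderm genes, 5 rose and 3 fell. Irx3 rose by 4.73 log2 (SE 0.45) and Pax6, a regulator of eye and brain, by 2.04 log2 (SE 0.47) to 3.96 CPM in formative cells, against 0.962 CPM in naive cells, while the neural cell adhesion gene Ncam1 fell by 1.46 log2 (SE 0.21) and Gbx2, which is also a naive factor, by 2.49 log2 (SE 0.28). In the primitive endoderm list 4 of 7 tested rose, including the endocytic adaptor gene Dab2 (2.0 log2, SE 0.34) and Amn (3.04 log2, SE 0.65). The defining factor gene Gata4 was low in both states, at 1.16 CPM in formative and 1.02 CPM in naive cells (adjusted p 0.861), and Sox17 was not analysed here. Of 15 trophoblast genes, 7 rose and 2 fell, and without naive library a 4 rose. The fallen ones were the transcription factor genes Tfap2c (21.6 CPM in formative, 121 CPM in naive cells, −2.49 log2, SE 0.26) and Tead4 (−2.47 log2, SE 0.27). The keratin gene Krt7 rose by 3.44 log2 (SE 0.52), whereas Cdx2, which defines the lineage, did not pass at 1.10 CPM in formative and 1.01 CPM in naive cells. Of 18 tested Hox genes 2 rose, 2 fell and 14 did not pass, with differences of −0.70 to 1.25 log2 among those 14 at low levels. Of the rises, that of Hoxd13 (4.14 CPM in formative, 1.64 CPM in naive cells) was lost without naive library a or formative library a. Hoxb1, the most 3′ of its cluster, stood at 3.46, 2.94 and 2.92 CPM in formative libraries and had no count in either naive library, which makes it at least 24.3-fold higher over a floor of 3 counts over the group. Hoxc13 fell by 1.91 log2 (SE 0.26).

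Imprinted genes, which are expressed from 1 parental copy in the body, were mostly higher in formative cells. Of 17 tested, 9 rose and 2 fell, 6 of 10 untested were at least 2-fold higher and none was 2-fold lower, and the list median was 1.0 log2. Cdkn1c, a maternally expressed inhibitor of cyclin-dependent kinases, stood at 39.4, 29.0 and 42.6 CPM in formative and 4.85 and 2.72 CPM in naive libraries, 3.26 log2 (SE 0.38, adjusted p 1.02e-07, limma). The non-coding RNA H19 stood at 134 CPM in formative and 11.1 CPM in naive cells, and the maternally expressed Phlda2 at 126 CPM in formative and 12.4 CPM in naive cells. Of paternally expressed genes, Magel2 rose by 4.40 log2 (SE 0.54) and Dlk1 by 2.81 log2 (SE 0.30). Genes expressed from either parental copy were thus among the rises. Ddc, imprinted in heart, stood at 34.2, 42.3 and 23.9 CPM in formative and 224 and 226 CPM in naive libraries and fell by 2.78 log2 (SE 0.23), and Plagl1 fell by 1.08 log2 (SE 0.22).

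Germline genes also changed in both directions. Of 19 tested, 8 rose and 5 fell, with a list median of 0.85 log2. Without naive library a 4 rose, and without naive library b 5 rose, while without formative library a or c 3 fell. Among genes of the piRNA pathway, which silences transposons in germ cells, Mael stood at 16.1, 23.2 and 17.5 CPM in formative and 1.62 and 1.81 CPM in naive libraries, 3.30 log2 (SE 0.40), and Tdrd1 at 10.5, 13.2 and 8.24 CPM in formative and 0.843 and 1.02 CPM in naive libraries, 3.24 log2 (SE 0.50). The helicase gene Ddx4 (Vasa) was also higher, at 40.5 CPM in formative and 4.58 CPM in naive cells. On the other side, Prdm1, which specifies primordial germ cells, stood at 5.98, 7.16 and 7.44 CPM in formative and 36.5 and 34.5 CPM in naive libraries, −2.34 log2 (SE 0.25), and the meiosis gene Stra8 fell by 2.11 log2 (SE 0.41). Dazl fell by 1.12 log2 (SE 0.24). Tex19.1 stood at 118 CPM in formative and 556 CPM in naive cells.

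Antiviral and interferon-type genes held several of the largest falls. In the list of 25, 9 of 18 tested genes fell and 5 rose, with a median of −0.61 log2. The members that fell include sensors and effectors, and those that rose include genes of antigen presentation. The split was not clean, since Ifit2 (2.03 log2, SE 0.53) and Isg15 (2.66 log2, SE 0.65) rose too. Dhx58 (1.22 log2) and Oas3 (−1.27 log2) did not pass. The promoters of 4 members, 250 bases before to 50 bases after the RefSeq start on GRCm38.p6, are shown because they carry the same type of element with opposite changes of their genes. Capitals mark matches, on either strand, to the core of the interferon-stimulated response element, searched as GAAA, any 2 bases and GAAA again. Oas1a lies at chr5:120907476-120907775 (minus strand), Ddx58 at chr4:40239776-40240075 (minus), Isg15 at chr4:156200769-156201068 (minus) and B2m at chr2:122147437-122147736 (plus).
Oas1a: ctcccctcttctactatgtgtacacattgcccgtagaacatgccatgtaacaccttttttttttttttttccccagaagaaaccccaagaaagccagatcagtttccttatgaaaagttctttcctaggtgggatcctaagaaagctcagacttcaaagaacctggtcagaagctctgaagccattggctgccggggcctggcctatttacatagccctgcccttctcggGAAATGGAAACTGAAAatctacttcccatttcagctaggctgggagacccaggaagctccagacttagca
Ddx58: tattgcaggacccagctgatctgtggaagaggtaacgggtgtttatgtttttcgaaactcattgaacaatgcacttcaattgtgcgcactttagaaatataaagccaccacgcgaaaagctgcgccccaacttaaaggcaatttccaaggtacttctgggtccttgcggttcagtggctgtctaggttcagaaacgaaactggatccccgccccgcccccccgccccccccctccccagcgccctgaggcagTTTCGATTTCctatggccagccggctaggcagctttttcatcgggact
Isg15: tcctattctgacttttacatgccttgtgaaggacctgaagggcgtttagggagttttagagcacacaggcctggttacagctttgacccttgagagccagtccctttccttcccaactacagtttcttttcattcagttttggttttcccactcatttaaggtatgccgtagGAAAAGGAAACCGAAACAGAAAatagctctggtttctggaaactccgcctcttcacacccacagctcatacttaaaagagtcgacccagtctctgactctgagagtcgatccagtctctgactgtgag
B2m: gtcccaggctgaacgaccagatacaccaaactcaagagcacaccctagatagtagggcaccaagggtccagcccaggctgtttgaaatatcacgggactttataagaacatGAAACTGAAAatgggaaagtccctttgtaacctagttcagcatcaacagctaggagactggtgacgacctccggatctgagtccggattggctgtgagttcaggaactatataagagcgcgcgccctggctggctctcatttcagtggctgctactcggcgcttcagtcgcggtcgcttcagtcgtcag
Matches that overlap were counted singly, giving 2 in Oas1a, 1 in Ddx58, 3 in Isg15 and 1 in B2m. A match describes letters in this window and is neither a bound site nor a cause.

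The double-stranded RNA sensor gene Oas1a stood at 0.144, 0.491 and 0.266 CPM in formative and 11.4 and 13.1 CPM in naive libraries, −4.68 log2 (SE 0.45, adjusted p 4.19e-09, limma). Ddx58, the gene of the viral RNA sensor RIG-I, stood at 5.76, 6.48 and 6.78 CPM in formative and 59.1 and 52.9 CPM in naive libraries, −3.10 log2 (SE 0.23, adjusted p 2.53e-10). Both sensors were low in every formative library. Apol6 (−4.70 log2, SE 0.39), Irf9 (−1.38 log2, SE 0.22) and the kinase gene Eif2ak2 (−1.42 log2, SE 0.29) fell as well, while Irf3 and Stat2 did not pass. Tap1, the transporter that loads peptides for presentation, stood at 20.2, 18.6 and 13.6 CPM in formative and 2.32 and 2.26 CPM in naive libraries, 2.80 log2 (SE 0.31, adjusted p 3.74e-08). B2m, the light chain of class I molecules, stood at 41.2, 40 and 32.3 CPM in formative and 15.4 and 22.3 CPM in naive libraries, 1.01 log2 (SE 0.23). The class I heavy chain gene H2-K1, at 66.1 CPM in formative and 13.3 CPM in naive cells, shares sequence with other class I genes and is uncertain. The restriction factor gene Bst2 stood at 94.1 CPM in formative and 9.95 CPM in naive cells, and the ubiquitin-like Isg15 rose, at 1.51, 1.67 and 1.73 CPM in formative and 0.211 and 0 CPM in naive libraries (adjusted p 0.00189, and 0.095 without naive library b).

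Promoter composition differed from the rest mainly in genes that fell and in those with the largest changes, as a description without a test. A RefSeq promoter of 300 bases was matched to 11278 genes (67.9%). A ratio of observed to expected CpG under 0.6, which marks promoters without a CpG island, was found in 30.1% of all matched promoters. The share was 37.1% among genes that rose, 46.8% among genes that fell and 34.9% among tested genes that did not pass. Of the 76 promoters of genes at least 8-fold lower, 82.9% were below this ratio, and of the 281 promoters of genes at least 8-fold higher, 48.0%. The same core, on either strand, was in 6 of the 76 (7.89%) against 2.76% of all promoters. Among those 6 are the promoters of Oas1a and Oas1g, neighbouring genes of similar sequence. In the wider sets the core was in 3.09% of promoters of genes that fell and 2.85% of genes that rose. Of the 8-fold higher genes 3.56% had it. TATAAA was in 18.4% of promoters of the 8-fold lower and 13.5% of those of the 8-fold higher genes, against 7.14% of all. Untested, mostly abundant genes had such a low ratio in 15.8% of promoters.

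Genes on the X chromosome rose more often than those on any other chromosome analysed. Of 424 tested X-linked genes 126 rose (29.7%), against 19.5% of tested genes elsewhere and a range of 16.7% to 23.2% over the other chromosomes. The share was 21.0% without naive library a, beside 14.3% elsewhere, and 23.3% without naive library b, beside 14.8% elsewhere. The median difference over all X-linked genes was 0.30 log2, against 0.14 log2 over all genes.

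Lists of respiration, glycolysis and cholesterol synthesis had medians of −0.18, 0.13 and 0.05 log2, beside 0.14 log2 over all genes, whereas amino acid transporter genes had a list median of 0.75 log2. Of the transporter genes 5 of 7 tested rose, against 19.9% of all tested genes, and none fell. Without naive library b 3 of them rose, and without naive library a 1 fell. Slc1a4, which carries neutral amino acids, rose by 1.79 log2 (SE 0.21). Of 21 genes of the respiratory chain and its biogenesis none rose, 2 of 7 tested fell and all 14 untested stayed within 2-fold. The muscle-type subunit gene Cox7a1 stood at 19.4, 30.6 and 19.5 CPM in formative and 58.8 and 54.2 CPM in naive libraries, −1.31 log2 (SE 0.23). Of 22 genes of glycolysis 13 of 17 untested stayed within 2-fold, the first enzyme gene Hk1 fell by 1.47 log2 (SE 0.23), Hk2 stood at 191 CPM in formative and 406 CPM in naive cells, and the lactate exporter gene Slc16a3 was higher at 544 CPM in formative and 88.7 CPM in naive cells. Gapdh, Pgk1 and Pgam1 have many processed pseudogenes, and their values are uncertain. Of 23 cholesterol genes 3 of 10 tested rose, among them Dhcr7, which acts late in cholesterol synthesis (0.93 log2, SE 0.23). In the G1 list 3 of 12 tested rose and 4 fell, while 1 fell without formative library c and 2 with either naive library left out. Cyclin D2 (Ccnd2) stood at 96.7 CPM in formative and 6.69 CPM in naive cells, while cyclin D1 (Ccnd1) stood at 130 CPM in formative and 95.6 CPM in naive cells. Of the p53 targets the apoptosis genes Pmaip1 (63.2 CPM in formative, 6.46 CPM in naive cells) and Bbc3 (129 CPM in formative, 45.0 CPM in naive cells) were higher and Cdkn1a was not (110 CPM in formative, 181 CPM in naive cells).

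Kmt2c and Kmt2d, the genes targeted in the mutant lines, are wild type in these cells by label, and neither was shown to change. Kmt2d stood at 41.7, 29.8 and 35.9 CPM in formative and 30 and 27.6 CPM in naive libraries, a difference of 0.30 log2 that did not pass (SE 0.20, adjusted p 0.262, limma). Kmt2c stood at 37.1 CPM in formative and 48.8 CPM in naive cells, −0.40 log2, with 62.6 and 37.7 CPM in the naive libraries and no test. Formative values of Kmt2d thus reached down to those of naive cells. Of 4 subunits shared by all enzymes of the family 3 were at least 2-fold lower, without a test. Ash2l stood at 374 CPM in formative and 813 CPM in naive cells, Wdr5 at 216 CPM in formative and 495 CPM in naive cells, and Rbbp5 at 63.8 CPM in formative and 130 CPM in naive cells, whereas Dpy30 stood at 234 CPM in formative and 276 CPM in naive cells. Ncoa6, a subunit particular to the complexes of MLL3 and MLL4, stood at 30.5 CPM in formative and 67.0 CPM in naive cells, while Kdm6a, the demethylase of the same complexes, stood at 46.1 CPM in formative and 29.8 CPM in naive cells. Of 19 enhancer coactivators and remodelers, Ncoa3 fell by 1.01 log2 (SE 0.20), Chd7 stood at 87.2 CPM in formative and 35.3 CPM in naive cells, and 12 of 13 untested stayed within 2-fold. Of 23 Polycomb genes, 1 of 11 tested rose and 3 fell, 10 of 12 untested stayed within 2-fold, and the median was −0.19 log2. The 2 untested genes at least 2-fold lower were Epop and Mtf2, accessory subunits of the complex that methylates histone H3 lysine 27. They stood at 75.6 and 274 CPM in formative, against 195 and 623 CPM in naive cells.

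The wild-type transition was then set against that of the catalytic-dead and of the floxed line, by testing the difference of the 2 transitions of each gene. A library of 6919314 counts entered both the formative catalytic-dead and the formative knockout mean. The knockout mean held 4 libraries with it and the catalytic-dead mean 3, where the labels list 3 samples each, and no source used here ties it to 1 of the lines, so counts without it are given. Of 11327 genes, 179 (1.58%) had a higher and 212 (1.87%) a lower difference in wild-type than in catalytic-dead cells. Without the shared library these counts were 146 and 179, and without naive wild-type library b they were 116 and 188. Against the floxed line, 74 of 10919 genes (0.678%) were higher and 82 (0.751%) lower in wild type. Without naive wild-type library b 29 were higher, without formative floxed library b 47, and without formative wild-type library c 51 were lower. Of the 391 genes that differed from the catalytic-dead line, 129 rose in wild type, 119 of them more than in catalytic-dead cells, and 153 fell in wild type, 148 of them more than in catalytic-dead cells. Of the 156 that differed from the floxed line, 56 rose in wild type, 52 of them more than in floxed cells, and 59 fell, 58 of them more. The wild-type change is itself a term of each difference, so a larger change in wild type is partly built into these shares. No conclusion about the strength of the transition is drawn from them. Both sets of differences use the same wild-type libraries. Each line is a line of its own, so genotype cannot be told apart from other differences between lines.

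Ly6a, the gene with the largest fall in wild type, differed from both lines. Its transition was −5.82 log2 in wild-type, −1.85 log2 in catalytic-dead and −0.46 log2 in floxed cells. The difference was −3.98 log2 against catalytic-dead (SE 0.61, adjusted p 2.81e-04, limma) and −5.37 log2 against floxed cells (SE 0.56, adjusted p 1.03e-06). Eomes went in opposite directions: it rose by 1.63 log2 in wild type, at 21.1 CPM in formative and 6.83 CPM in naive cells, while its transition was −2.35 log2 in catalytic-dead cells, with 3.76 CPM in the formative state, and −1.48 log2 in floxed cells, with 4.68 CPM in formative and 13.1 CPM in naive cells. The differences were 3.98 log2 (adjusted p 1.69e-06) against catalytic-dead and 3.11 log2 (adjusted p 1.24e-04) against floxed cells. Evx1, like Eomes a gene of the primitive streak, stood at 7.22 CPM in formative and 1.77 CPM in naive wild-type cells, against 0.748 CPM in formative and 1.96 CPM in naive catalytic-dead cells and 0.393 CPM in formative and 2.48 CPM in naive floxed cells. Its differences were 3.42 log2 (adjusted p 0.00779) and 4.69 log2 (adjusted p 7.48e-04). Formative wild-type cells thus had the highest level of both genes among the 3 lines.

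Against the catalytic-dead line, the ligand gene Wnt3 (3.56 log2, adjusted p 0.00166), the homeobox gene Irx3 (3.62 log2, adjusted p 3.61e-04), the imprinted gene Dlk1 (2.76 log2, adjusted p 4.18e-05) and the endocytic adaptor gene Dab2 (3.06 log2, adjusted p 1.65e-05) had higher differences in wild type. Dab2 stood at 13.8 CPM in formative and 3.45 CPM in naive wild-type cells, against 23.8 CPM in formative and 49.6 CPM in naive catalytic-dead cells. The antiviral genes Apol6 (−4.13 log2, adjusted p 6.17e-04) and Oas1a (−3.65 log2, adjusted p 0.00269, and 0.0693 with a prior count of 0.5) had lower differences in wild type. In catalytic-dead cells both were low in either state, Apol6 at 0.833 CPM in formative and 1.24 CPM in naive cells and Oas1a at 0.403 CPM in formative and 0.824 CPM in naive cells. Gbx2 fell to 3.89 CPM in formative wild-type cells, against 21.9 CPM in naive ones, while in catalytic-dead cells it stood at 28.6 CPM in formative and 15.1 CPM in naive cells, a difference of −3.41 log2 (adjusted p 1.57e-06). Prdm1 fell by 2.34 log2 in wild type. Its difference was −2.33 log2 against catalytic-dead (adjusted p 1.07e-04, limma) and −1.74 log2 against floxed cells (adjusted p 0.00845).

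Against the floxed line, 2 genes that fell in wild type were low in floxed cells of both states. Dcstamp stood at 0.510 CPM in formative and 11.5 CPM in naive wild-type cells, against 0.690 CPM in formative and 0.851 CPM in naive floxed cells, a difference of −4.19 log2 (adjusted p 0.00549). Apobec2, a relative of the cytidine deaminases, stood at 3.93 CPM in formative and 44.2 CPM in naive wild-type cells, against 6.53 CPM in formative and 5.24 CPM in naive floxed cells, a difference of −3.81 log2 (SE 0.40, adjusted p 1.35e-06). Parm1 fell by 2.30 log2 in wild type and stood 2.47 log2 higher in formative than in naive floxed cells, so the transitions ran in opposite directions (difference −4.77 log2, SE 0.47, adjusted p 5.83e-07). Oas1f fell by 4.96 log2 in wild type and stood 1.33 log2 lower in formative than in naive floxed cells (difference −3.63 log2, adjusted p 0.00387, and 0.0783 with a prior count of 0.5). Psors1c2 rose by 2.71 log2 in wild type and differed from both lines, by 3.72 log2 from catalytic-dead (adjusted p 0.0014) and by 3.16 log2 from floxed cells (adjusted p 0.0109, lost without naive wild-type library b).

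**Figure D5:**
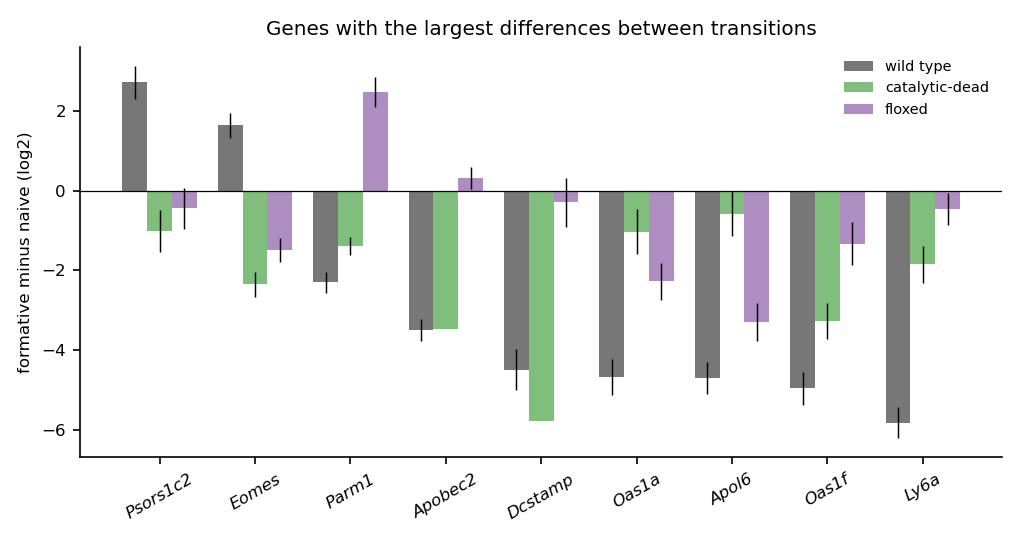
Formative minus naive difference (log2, bars, with the SE where library values gave one) in wild-type, catalytic-dead and floxed cells of genes whose wild-type transition differed from that of another line. Ly6a stands at −5.82 log2 in wild-type, −1.85 log2 in catalytic-dead and −0.46 log2 in floxed cells, and Eomes at 1.63 log2 in wild-type against −2.35 log2 in catalytic-dead and −1.48 log2 in floxed cells.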

How the data were processed

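Total RNA was extracted with Trizol, 200 ng per sample went into a QuantSeq 3′ library, and single-end reads of 50 bases were made, per the labels' protocols. FastQC 0.11.8, MultiQC, cutadapt 2.5, STAR, featureCounts of Subread 1.6.4, DESeq2 1.34.0 and mm10 are named in the submitters' processing notes. No source used here gives the strand setting of the counting, and overlapping and antisense genes and near-identical copies are therefore uncertain. The design text states that 3 replicates per group were cultured and prepared independently.

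The deposited table holds, for 16617 genes, 8 columns of group means of log2 CPM values, which the authors averaged over libraries; the values themselves showed a prior count of 2 adjusted for library size. Whole library counts were recovered from these means (at most 0.3 solutions expected by chance within the search window). In all, 23 libraries of 4808564 to 15425959 counts were found, 6812462 of 234513119 counts belong to no library of any column, and 1 library stood in 2 columns. Library sizes lay within 0.018 of whole numbers. Recovery and fit were tested on simulated data. The conditional column was taken for the floxed line. Recovered values were fitted with limma 3.58.1 in R 4.3.3 in 1 model of the 8 groups, with weights from the SD smoothed over the mean count by lowess (span 0.3) and variances moderated with a trend. Genes needed 10 counts at the median library size in 3 libraries. The threshold of 0.05 applies to p-values adjusted by Benjamini-Hochberg across the tested genes of a comparison. Fold changes are on the log2 scale with the prior count and understate changes of low genes. Where 1 naive wild-type library was left out, the other was assumed to vary like the other groups. Counting floors cover counting error only.

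Python 3.11.15 with numpy 2.4.6, pandas 2.3.3, scipy 1.17.1 and numba 0.67.0 was used. Identifiers were matched to GENCODE vM21 (GRCm38) for 16610 genes, and promoters are from RefSeq (GRCm38.p6).

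The comparison and all gene lists were chosen with earlier results of these data known. Named genes are the 12 largest tested rises and falls with libraries apart and at least 10 CPM. They include the 12 largest untested differences each way and up to 6 members per list. Kmt2c and Kmt2d with partners, and the 5 largest absolute differences against each compared line, were named as well. Genes without symbol and predicted models were passed over, and some genes that meet these rules are not reported here. Other list members, such as Nanog, Klf4, Dnmt1, Tet1, Spp1, Kit, Sox4, Notch2, Jag1 and Irf9, were named after their values had been seen. Alternatives were another prior count, filter, scaling, set of groups, no weights, a stricter recovery limit, the spread of recovered libraries for untested genes, and leaving out each library.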

Additional observations from a re-analysis of the deposited data

Results flagged for a closer look

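The values here are for genes chosen by the naming rule whose wild-type transition differed from that of another line by a test of the difference itself, as the wild-type formative minus naive log2 difference minus that of the other line.

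Against the catalytic-dead line, the difference was positive for Eomes (3.98), Psors1c2 (3.72), Irx3 (3.62), Wnt3 (3.56), Evx1 (3.42), Slc40a1 (3.36), Usp17la (3.22), Dab2 (3.06), Trim67 (2.97), Msx1 (2.92), Mbnl3 (2.77), Dlk1 (2.76), Rem2 (2.55), Cldn7 (2.41), Fgfbp1 (2.31), Gadd45g (1.91), Col4a1 (1.25) and Slc1a4 (1.21). It was negative for Apol6 (−4.13), Oas1g (−4.03), Ly6a (−3.98), Oas1a (−3.65), Gbx2 (−3.41), Bmp4 (−2.52), Prdm1 (−2.33), Lef1 (−1.99), Tcl1 (−1.90), Stra8 (−1.84), Ncam1 (−1.61), Ddx58 (−1.60) and Tubb3 (−1.14). Of these, the calls of Cldn7, Col4a1, Lef1, Msx1, Rem2, Slc1a4, Stra8, Trim67, Tubb3 and Usp17la were lost when some single library was left out, in each case with naive wild-type library a or b among those that ended the call. Lef1 and Tubb3 also lost theirs without the library that stands in both the catalytic-dead and the knockout mean.

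Against the floxed line, the difference was positive for Evx1 (4.69), Psors1c2 (3.16), Usp17la (3.16), Eomes (3.11), Mbnl3 (2.21), Hoxb1 (2.14) and Slc1a4 (1.20). It was negative for Ly6a (−5.37), Parm1 (−4.77), Dcstamp (−4.19), Apobec2 (−3.81), Oas1f (−3.63), Dmgdh (−2.71), Dcn (−2.67), St8sia1 (−2.38), Smyd1 (−2.08) and Prdm1 (−1.74). The calls of Dcn, Dmgdh, Hoxb1, Mbnl3, Psors1c2, Slc1a4, Smyd1, St8sia1 and Usp17la were lost when some single library was left out. The fibroblast marker Dcn was higher in formative than in naive cells of both lines, by 2.66 log2 in wild-type and 5.33 log2 in floxed cells. With a prior count of 0.5 the calls of Oas1a and Oas1g against the catalytic-dead line and of Oas1f against the floxed line were also lost (adjusted p 0.0693, 0.0599 and 0.0783, limma).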

How the results depend on the processing

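The counts of the wild-type transition kept within 1.5 times of 2377 rises and 1483 falls under every alternative run, with 1703 to 3063 rises and 1118 to 1848 falls, of which 1744 to 2384 and 1118 to 1439 came from leaving out 1 library. Of the rises, 65.6% were also called without naive library a, 70.1% without naive library b and 68.2% with the filter of 50 counts, and of the falls 71.5%, 81.3% and 78.4%. No named gene past the threshold changed sign. Of 169 such genes, 39 were lost under at least 1 setting, most often without naive library a (30). Only 85 had a test under all 13 settings, of which 64 passed under each, since the filter of 50 counts and the recovery limit of 0.03 leave genes untested. The shift of −0.15 log2 by size factors is as large as the median of 0.14 log2 over all genes, and the list median of 0.04 log2 for LIF signalling is smaller still, so neither median has a direction that holds under both scalings. Setting the median of all genes to 0 moved 60 of 178 untested named genes by more than the spread. Wild-type minus catalytic-dead, higher: 106 with a recovery limit of 0.03 and 116 to 182 without single libraries, against 179. The lower count was 144 to 216 without single libraries. Wild-type minus floxed, higher: 32 with the groups of the contrast alone, 37 with a prior count of 0.5 and 29 to 83 without single libraries, against 74. Wild-type minus floxed, lower: 36 with those groups alone, 52 with no weights, 47 with the prior count of 0.5 and 51 to 79 without single libraries, against 82. List members that rose: 206 with the spread of recovered libraries, by which untested genes gain a test, and 77 to 126 without single libraries, against 118. List members that fell: 48 with the recovery limit of 0.03 and 65 to 74 without single libraries, against 77. The X-linked share that rose was 34.5% with a filter of 50 counts and 21.0% to 28.5% without single libraries, against 29.7%. The share of fallen genes with a low CpG ratio was 41.8% with that filter, 52.6% with the recovery limit of 0.03 and 41.8% with the spread of recovered libraries, against 46.8%. Where no reason is given, the cause was not tested. No paired analysis was possible because the recovered libraries carry no replicate number. Abundant formative genes have no library values, which limits every count of rises, and low genes are limited by the depth of a few counts.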

Other observations

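Lists not described above also held single genes with wide differences. Among chaperones and proteostasis genes, the small heat shock gene Hspb1 stood at 101 CPM in formative and 486 CPM in naive cells and the asparagine synthetase gene Asns at 182 CPM in formative and 380 CPM in naive cells, while Chac1, an enzyme that degrades glutathione, stood at 56.6 CPM in formative and 10.9 CPM in naive cells. The cytosolic HSP90 genes did not move together, with Hsp90aa1 at 1457 CPM in formative and 2403 CPM in naive cells and Hsp90ab1 at 8727 CPM in formative and 7837 CPM in naive cells. Among genes of serine, glycine and one-carbon metabolism, Gldc of the glycine cleavage system stood at 56.8 CPM in formative and 15.8 CPM in naive cells and Shmt1 at 253 CPM in formative and 439 CPM in naive cells. Of the enzymes of histone H3 lysine 9 methylation, Suv39h1 stood at 41.1 CPM in formative and 15.2 CPM in naive cells, and the demethylase gene Kdm3a at 47.3 CPM in formative and 125 CPM in naive cells. Their list of 17 genes had a median of 0.04 log2, and 11 of 13 untested members stayed within 2-fold. Of 4 tested members 2 rose and none fell. Among the rises was the demethylase gene Kdm4c (0.96 log2, SE 0.33), a call lost without formative library c. Both measured members of a list of mitochondrially encoded RNAs were higher. The level of mt-Rnr1 was 4657 CPM in formative and 3042 CPM in naive cells, and that of mt-Rnr2 9661 CPM in formative and 7170 CPM in naive cells. Apart from Kdm4c, the genes named in this paragraph have no test.

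Genes of the rare 2-cell-like state of stem cell cultures rose in 5 of 9 tested, among them Usp17la at 3.24, 2.35 and 4.25 CPM in formative and 0.702 and 0.113 CPM in naive libraries (2.66 log2, SE 0.61). Between 1 and 3 of them passed when either naive library, or formative library a or c, was left out, and these genes belong to families of near-identical copies. The splicing factor gene Mbnl3 stood at 8.64, 7.16 and 8.90 CPM in formative and 1.4 and 1.47 CPM in naive libraries, a rise of 2.36 log2 (SE 0.36).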
